A study of Homo sapiens with 36 samples.

Results

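The genes described here are 38 long genes whose mRNA signal was lowered by camptothecin, of 22260 genes measured. They were chosen by name after earlier results of these data were known, and the values that chose them were their changes after camptothecin in the cells studied here. All 38 were measured, 34 under their current symbols and BABAM2, ABTB3, ELAPOR2 and SPIDR under the older symbols BRE, BTBD11, KIAA1324L and KIAA0146. The arrays came from DU145, a human prostate carcinoma line, and CCRF-CEM, a human T-cell leukaemia line, each with its SLFN11-proficient parent cells and with cells in which SLFN11 was knocked out. SLFN11 is a Schlafen family protein that acts on stalled replication forks and sensitises cancer cells to drugs that damage replicating DNA. Cells of each genotype were untreated controls or were kept in 250 nM camptothecin for 6 h or 12 h, which gave 12 groups of 3 arrays, 36 in all. Each line had 1 knockout derivative, which the labels do not describe as a clone or a pool, and the labels name DMSO as another addition but give no harvest time for the controls. The labels number the arrays of a group without saying whether they came from separate cultures, so the p-values measure the spread between these arrays, which may be technical.

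Camptothecin traps topoisomerase I, the enzyme that relieves supercoils ahead of moving polymerases, in a cleaved complex with DNA. A trapped complex stops both replication forks and elongating RNA polymerase II. A long gene has to be read by each polymerase over a long distance, and a polymerase on it can meet more such complexes before it reaches the end. Long genes are known from other cell types for reduced mRNA after topoisomerase I is inhibited.

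The 38 genes spanned 154.8 kb (RASA3) to 2220.2 kb (DMD) in the RefSeq annotation of GRCh38.p14, with a median of 467 kb. All protein-coding genes measured had a median span of 26.6 kb. Of the 38 genes 25 spanned more than 400 kb, 11 spanned 200 to 400 kb and 2, RASA3 and ELAPOR2, less than 200 kb. Chromosome 6 held 6 of them. RefSeq promoters of 300 bases (250 before and 50 after the start, most upstream start where several are listed) were available for 32 of the 38 genes. Their median GC content was 68.7%, and that of 15842 protein-coding promoters was 62.7%. The GC box GGGCGG, which Sp1 family factors bind, lay on either strand in 24 of the 32 promoters (75%) and in 58.3% of all promoters. TATAAA lay in 1 of the 32 (3.12%) and in 9.75% of all, and CCAAT in 6 (18.8%) and in 36.4% of all, on either strand. These counts describe the letters in the window and were not tested. The window lay at the start of the annotated gene for 28 of the 32, up to 193 bases inside it for MBD5 and FTO, and 39.4 and 53.8 kb inside it for CAMK1D and FUT8. Without those 2 the median GC content was 69.7% and 24 of 30 windows (80%) held the GC box. Promoters of SCFD2 and CDKAL1, at the start of their genes, are shown as those of genes that passed lower in all 8 comparisons, and those of ARHGAP26 and IQGAP2 as those of genes whose fall differed between the genotypes in CCRF-CEM. Capitals mark matches of GGGCGG or its reverse complement CCGCCC, of which SCFD2 and CDKAL1, unlike most of the 32, have 0, ARHGAP26 has 2 and IQGAP2 has 1. Of the others with a window that passed in all 8, ABTB3, TBC1D5, PTPRM, FAF1, SNX29, GPHN, CHST11, PTPRK and SND1 have a GC box. CAMK1D, BABAM2, PITPNC1 and FUT8 do not.
SCFD2, chr4:53366012-53366311, minus strand: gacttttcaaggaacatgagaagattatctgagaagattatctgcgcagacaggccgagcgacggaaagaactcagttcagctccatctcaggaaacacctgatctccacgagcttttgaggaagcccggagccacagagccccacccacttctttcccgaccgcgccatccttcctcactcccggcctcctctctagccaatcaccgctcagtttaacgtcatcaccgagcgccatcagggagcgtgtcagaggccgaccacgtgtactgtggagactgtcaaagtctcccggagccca
CDKAL1, chr6:20534207-20534506, plus strand: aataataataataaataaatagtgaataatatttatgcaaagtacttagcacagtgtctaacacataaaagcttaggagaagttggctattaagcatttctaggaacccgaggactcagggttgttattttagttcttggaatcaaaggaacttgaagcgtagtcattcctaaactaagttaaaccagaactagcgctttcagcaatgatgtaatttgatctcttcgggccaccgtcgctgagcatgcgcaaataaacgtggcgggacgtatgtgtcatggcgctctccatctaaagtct
ARHGAP26, chr5:142770127-142770426, plus strand: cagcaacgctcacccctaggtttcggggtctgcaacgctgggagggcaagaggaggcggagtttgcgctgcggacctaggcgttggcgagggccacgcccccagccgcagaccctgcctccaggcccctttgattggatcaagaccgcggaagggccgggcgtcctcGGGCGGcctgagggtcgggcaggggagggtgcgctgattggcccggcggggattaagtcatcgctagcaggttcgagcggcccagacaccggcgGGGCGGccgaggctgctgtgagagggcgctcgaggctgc
IQGAP2, chr5:76403035-76403334, plus strand: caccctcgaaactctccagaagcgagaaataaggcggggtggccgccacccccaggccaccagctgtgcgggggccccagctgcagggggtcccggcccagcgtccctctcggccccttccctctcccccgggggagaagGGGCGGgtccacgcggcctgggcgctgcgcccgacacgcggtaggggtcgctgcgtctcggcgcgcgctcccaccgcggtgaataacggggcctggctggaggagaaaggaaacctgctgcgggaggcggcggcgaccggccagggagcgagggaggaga

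Arrays of 1 group correlated at r of 0.979 to 0.988 across genes. Epithelial and T-lineage markers fitted the labelled lines: the array median of 8 epithelial markers was 9.55 to 10.11 in DU145 and 6.39 to 7.38 in CCRF-CEM, and that of 8 T-lineage markers was 5.28 to 6.35 and 10.75 to 11.25. That of 5 fibroblast and endothelial markers was 8 to 8.66 in DU145 and 8.01 to 8.63 in CCRF-CEM, and was not low in either line. SLFN11 itself had 11 probe sets, of which 4 were lower in untreated knockout than parent cells and 7 were not, in each line. Its brightest probe set was higher in the knockout cells, by 0.41 ± 0.17 log2 in DU145 (± SE, limma adjusted p = 0.15) and by 0.34 ± 0.12 in CCRF-CEM (adjusted p = 0.231), and neither difference passed. SLFN11 mRNA thus gave no check of the knockout labels, and knockout cells means below the cells so labelled. T-lineage markers moved with the treatment in CCRF-CEM: 3 and 4 of 8 fell in parent cells at 6 h and 12 h, where their medians were -0.27 and -0.39 and 0 and 1 rose, and 0 and 2 fell in knockout cells. Whether this has a part in the results below was not tested.

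After camptothecin the signal of nearly all 38 genes was lower in both lines, both genotypes and at both times. The brightest probe set over all arrays stood for a gene, which passed where the Benjamini-Hochberg adjusted p of limma over all 22260 genes was below 0.05. In DU145 parent cells 30 of 38 passed lower at 6 h (4.42% of all genes did) and 34 at 12 h (3.89%), with median log2 differences from control of -1.22 and -1.27. In DU145 knockout cells 30 passed at 6 h (3.39% of all genes) and 30 at 12 h (3.72%), with medians of -1.14 and -1.23. In CCRF-CEM parent cells 35 passed at 6 h (5.06%) and 34 at 12 h (7.3%), with medians of -1.17 and -1.06. In CCRF-CEM knockout cells 35 passed at 6 h (2.92%) and 28 at 12 h (2.81%), with medians of -1.19 and -0.84. None of the 38 passed higher in any of these 8 comparisons, in which 5.67%, 3.8%, 5.32%, 6.31%, 7.36%, 9.51%, 3.52% and 5.4% of all genes did, in the order given. The medians of all genes lay between -0.02 and 0.04. These changes chose the genes, so the counts and medians describe them and test nothing. With arrays shifted to equal medians of 18 housekeeping genes 29 to 35 members passed lower (2.48% to 5.94% of all genes) and 0 higher (0.746% to 23.9%). The share of higher genes among all genes called moved with that shift, from 49.4% to 62.9% in DU145 to 22.6% to 42.8%, from 59.2% and 56.6% in CCRF-CEM parent cells to 81% and 90.6%, and from 54.7% and 65.8% in CCRF-CEM knockout cells to 11.3% and 21.8%. In bulk cells a lower signal may be fewer cells with the mRNA or less of it per cell, which cannot be told apart.

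**Figure D1:**
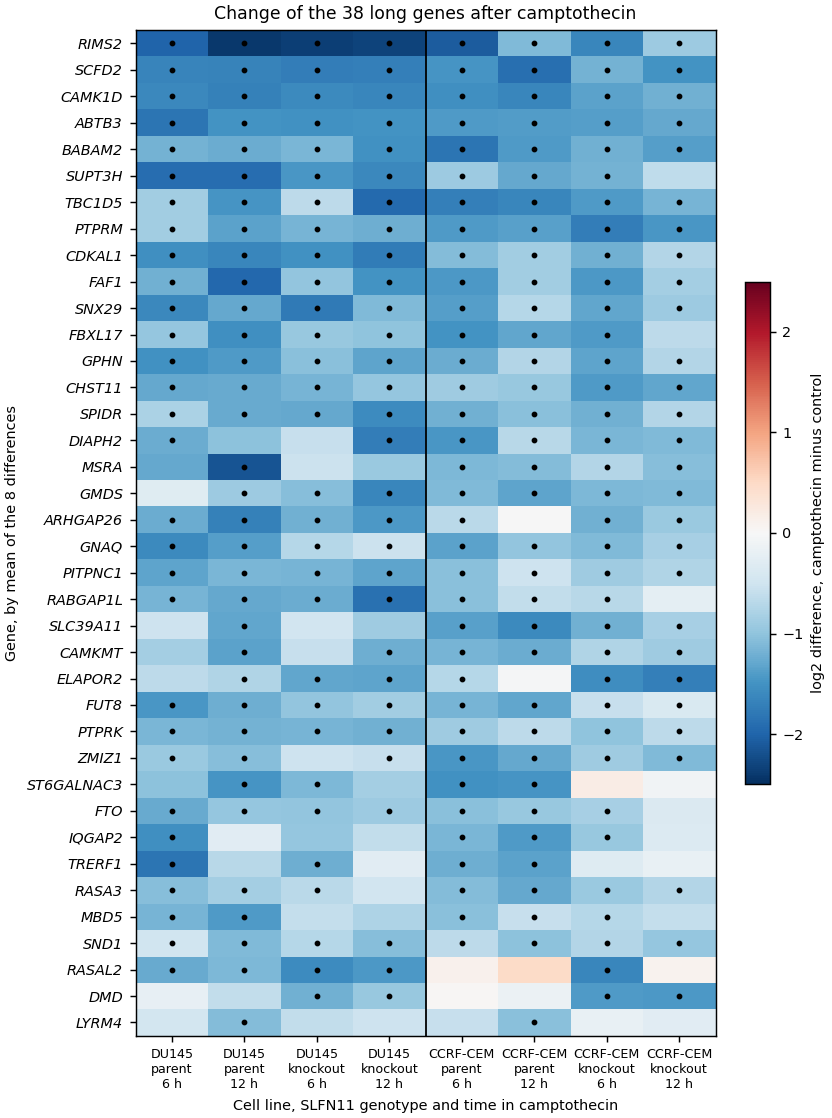
Log2 difference between camptothecin and control for each of the 38 genes (rows, by mean of the 8 differences) in each line, genotype and time (columns). Blue is lower and red higher, and a black dot marks a gene that passed; 18 rows carry a dot in all 8 columns, and no cell with a dot is red.

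The fall was broad across the parent and knockout cells of both lines, which describes genes chosen by these changes and tests nothing. Of the 38 genes 35 had a difference below 0 in all 8 comparisons, 18 passed lower in all 8 and 29 in at least 6. Over all genes 51 (0.229%) passed lower in all 8 and 167 (0.75%) in at least 6. The exceptions in sign were RASAL2, below 0 in 5 of 8, and ST6GALNAC3 and DMD, each below 0 in 7. All treated arrays lay below all control arrays for 34 of 38 genes in DU145 parent cells at 6 h (11.8% of all genes) and 37 at 12 h (11.2%). In DU145 knockout cells this held for 36 (10.8%) and 33 (10.5%), in CCRF-CEM parent cells for 36 (14%) and 34 (14.6%), and in CCRF-CEM knockout cells for 35 (10%) and 32 (11.3%). The 38 genes had 844 probe sets, 7 to 75 each, of which 80.9% to 84.1% were below 0 in each comparison. For 36 or 37 genes the probe sets below 0 outnumbered the rest. Of all genes, each by its brightest probe set, 44.9% to 52.1% were below 0 in each comparison. The matching shares over all probe sets, and of all genes below 0 in all 8 comparisons, were not counted.

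Genes of membrane traffic and secretion included the largest fall. All 6 passed lower in 7 comparisons, and 5 passed at 12 h in CCRF-CEM knockout cells, with group medians of -0.91 to -1.79. RIMS2 encodes an active-zone scaffold that binds Rab3 and primes synaptic vesicles. Its signal in DU145 parent cells was 8.62, 8.7 and 8.74 in controls, 6.05, 7.19 and 6.81 at 6 h and 6.49, 6.71 and 5.59 at 12 h. In DU145 knockout cells it was 8.68, 8.76 and 8.87, then 6.86, 6.64 and 5.77, then 6.55, 6.22 and 6.61. No treated array reached a control array in DU145, and the differences of -2.0 to -2.42 in parent cells stood for signals 4.01-fold and 5.37-fold lower. In CCRF-CEM parent cells RIMS2 stood at 9.11, 8.56 and 8.79 in controls, 6.94, 6.54 and 6.74 at 6 h and 8.02, 7.44 and 7.67 at 12 h. In CCRF-CEM knockout cells the values were 9.37, 9.47 and 9.54, then 7.69, 8.22 and 7.55, then 8.52, 8.81 and 8.36. Treated and control arrays did not overlap in CCRF-CEM either, and the 12 h arrays lay between the 6 h and the control arrays in both genotypes.

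SCFD2, a protein of the Sec1 family that takes part in vesicle traffic, and TBC1D5, a Rab7 GTPase-activating protein that works with retromer, had means of -1.6 and -1.36 over the 8 comparisons. SCFD2 in DU145 was at 8.63, 9.04 and 8.7 in parent controls and at 7.55, 6.94 and 6.91 at 6 h and 7.4, 7.17 and 6.78 at 12 h. The knockout cells gave 8.4, 8.77 and 8.93, then 7.09, 6.56 and 7.29, then 6.54, 7.17 and 7.26. In CCRF-CEM the parent values were 9.6, 9.63 and 9.51, then 7.84, 8.15 and 8.35, then 7.67, 7.58 and 7.82, and the knockout values 9.71, 9.66 and 9.38, then 8.36, 8.24 and 8.61, then 8.12, 7.94 and 8.18. SCFD2 was lower on every treated array than on every control array of the same cells, with differences of -1.89 to -1.18. The other members of the group were SNX29, a sorting nexin (-1.76 to -0.72, passed in 8 of 8), PITPNC1, a phosphatidylinositol transfer protein (-1.32 to -0.51, 8 of 8), and RABGAP1L, a Rab GTPase-activating protein (-1.87 to -0.24, 7 of 8). The differences of TBC1D5 ran over -1.95 to -0.65.

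Of 4 kinase, phosphatase and calmodulin genes 3 or 4 passed in each comparison. CAMK1D is a calcium/calmodulin-dependent protein kinase. In DU145 parent cells its signal was 10.25, 10.05 and 10.06 in controls, 8.52, 8.47 and 8.54 at 6 h and 8.65, 8.5 and 8.17 at 12 h, and in knockout cells 9.71, 10.31 and 10.31, then 8.41, 8.71 and 8.43, then 8.85, 8.36 and 8.23. In CCRF-CEM parent cells it was 10.61, 10.39 and 10.32, then 8.8, 9.11 and 8.82, then 8.72, 8.74 and 8.93, and in knockout cells 10.07, 10.48 and 10.08, then 8.78, 8.97 and 8.89, then 9.24, 9.11 and 8.69. Treated arrays lay below controls in all 4 cell types with a gap, and the 8 differences stayed within -1.68 to -1.2. The receptor tyrosine phosphatases PTPRM and PTPRK, which bind themselves on neighbouring cells, passed in 8 and 8 of 8 comparisons, with differences of -1.73 to -0.86 and -1.2 to -0.65. CAMKMT, which methylates calmodulin, passed in 6 (-1.34 to -0.57).

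Of 3 genes of ubiquitin and protein turnover, all passed in 7 comparisons, and 2 passed at 12 h in CCRF-CEM knockout cells. ABTB3, an ankyrin-repeat and BTB-domain protein, was at 8.92, 9.14 and 8.89 in DU145 parent controls, 6.88, 7.28 and 7.31 at 6 h and 7.5, 7.56 and 7.38 at 12 h. The knockout cells gave 8.6, 8.49 and 8.49, then 7.07, 6.6 and 7.35, then 6.81, 6.78 and 7.5. CCRF-CEM parent cells gave 9.05, 9.2 and 9.0, then 7.42, 7.84 and 7.77, then 7.68, 7.44 and 7.97, and knockout cells 9.5, 9.42 and 9.51, then 7.93, 8.32 and 8.07, then 8.11, 8.31 and 8.16. Again the treated arrays of each cell type were below its controls, by -1.83 to -1.28. FAF1, a ubiquitin-binding partner of the VCP segregase, passed in 8 of 8 (-1.96 to -0.84), and FBXL17, an F-box substrate receptor of a ubiquitin ligase, in 7 (-1.53 to -0.65).

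Both DNA repair genes passed in all 8 comparisons. BABAM2, a subunit of the BRCA1-A deubiquitinase complex, had in DU145 parent cells 9.38, 9.56 and 9.4 in controls, 8.21, 8.26 and 8.32 at 6 h and 8.31, 8.11 and 8.17 at 12 h, and in knockout cells 9.58, 9.78 and 9.82, then 8.62, 8.45 and 8.67, then 8.22, 8.25 and 8.15. In CCRF-CEM parent cells it had 9.25, 9.38 and 9.51, then 7.22, 7.72 and 7.74, then 8.11, 7.76 and 8.04, and in knockout cells 9.32, 9.31 and 9.25, then 8.19, 7.94 and 8.12, then 7.64, 8.01 and 8.09. Treated and control arrays did not overlap in any cell type, and differences were -1.82 to -1.15. SPIDR, a scaffold of homologous recombination, had differences of -1.57 to -0.74.

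The 7 genes of chromatin, transcription and RNA had group medians of -0.63 to -1.26, and 3 to 7 of them passed. SUPT3H, a subunit of the SAGA coactivator, fell most. In DU145 its parent cells gave 9.04, 8.78 and 9.19 in controls, 6.71, 7.36 and 7.23 at 6 h and 7.11, 7.43 and 6.75 at 12 h, and its knockout cells 8.21, 7.88 and 8.47, then 6.24, 6.99 and 6.98, then 7.17, 5.5 and 7.03. In CCRF-CEM parent cells it stood at 8.15, 8.13 and 8.55, then 7.57, 7.22 and 7.32, then 7.02, 6.88 and 7.11, and in knockout cells at 7.64, 8.18 and 7.8, then 6.12, 6.84 and 7.08, then 7.34, 6.6 and 7.8. It passed in 7 of 8 and missed the threshold in CCRF-CEM knockout cells at 12 h (-0.63 ± 0.28, adjusted p = 0.189). CDKAL1, a tRNA-modifying methylthiotransferase, and SND1, an RNA-binding nuclease-domain protein, passed in all 8 (-1.74 to -0.73 and -1.1 to -0.5). FTO, an RNA demethylase, and ZMIZ1, a transcriptional coactivator related to the PIAS proteins, passed in 7 each (-1.26 to -0.36 and -1.45 to -0.51). MBD5, a protein with a methyl-CpG-binding-like domain, passed in 5 (-1.42 to -0.57) and TRERF1, a zinc-finger coregulator, in 4 (-1.82 to -0.18).

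Among 4 glycan and sulfate transfer genes, CHST11, a chondroitin sulfotransferase, and FUT8, which adds core fucose to N-glycans, passed in all 8 (-1.41 to -0.88 and -1.45 to -0.39). GMDS, which starts the synthesis of GDP-fucose, passed in 7 (-1.63 to -0.3). ST6GALNAC3, a sialyltransferase, passed in 4 (-1.51 to 0.19). Genes of GTPase control were RASA3, a Ras and Rap GTPase-activating protein (-1.27 to -0.48, 7 of 8), ARHGAP26, a GTPase-activating protein (-1.68 to -0.01, 7 of 8), IQGAP2, a scaffold that binds Rac and Cdc42 (-1.54 to -0.29, 4 of 8), and RASAL2. GNAQ, the alpha subunit of the Gq protein, passed in 8 (-1.59 to -0.53). Of the cytoskeletal and scaffold genes, GPHN, the gephyrin that clusters inhibitory neurotransmitter receptors, passed in 8 (-1.52 to -0.73) and DIAPH2, an actin-nucleating formin, in 6 (-1.73 to -0.57). Of the metabolic and other genes, ELAPOR2, a relative of a lysosome and autophagy regulator, passed in 6 (-1.7 to -0.03). MSRA, a methionine sulfoxide reductase, and SLC39A11, a zinc transporter, passed in 5 each (-2.16 to -0.53 and -1.59 to -0.48).

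The 3 genes with means closest to 0 were LYRM4, DMD and RASAL2. LYRM4, which supports iron-sulfur cluster assembly, had a mean of -0.6 and passed in DU145 parent and CCRF-CEM parent cells at 12 h. Its arrays there read 8.58, 7.54 and 7.76 against 8.86, 9.19 and 9.12 in DU145 and 7.71, 7.6 and 7.88 against 8.71, 8.79 and 8.83 in CCRF-CEM, with no overlap in either line. At 6 h the values were 8.57, 8.59 and 8.62 and 7.77, 8.3 and 8.54. In knockout cells LYRM4 read 8.78, 8.83 and 8.78, then 8.34, 8.11 and 8.13, then 7.95, 8.49 and 8.4 in DU145 and 8.35, 8.4 and 8.41, then 8.49, 8.32 and 7.8, then 8.0, 7.9 and 8.39 in CCRF-CEM. In knockout cells none of its changes passed, although the treated DU145 arrays lay below the controls there too, and the genotype difference tested below did not pass for LYRM4 in either line (adjusted p = 0.123 to 0.887). DMD, dystrophin, which links actin to the membrane, passed in all 4 knockout comparisons and in none of the parent ones. DMD read 8.86, 8.26 and 7.94, then 7.86, 8.37 and 8.23, then 7.69, 7.76 and 7.75 in DU145 parent and 8.13, 8.48 and 8.21, then 6.68, 7.21 and 7.32, then 7.89, 7.07 and 7.03 in DU145 knockout cells. In DU145 its genotype difference did not pass (1.0 ± 0.36 and 0.32 ± 0.36, adjusted p = 0.224 and 0.728), and the medians of its 75 probe sets at 6 h and 12 h were -0.03 and -0.20 for DU145 knockout cells, against -0.04 and -0.07 for those of CCRF-CEM. RASAL2, a Ras GTPase-activating protein, passed in all 4 DU145 comparisons, where it read 9.95, 9.87 and 10.17, then 8.7, 8.54 and 8.99, then 8.99, 8.97 and 8.66 in parent and 10.38, 10.02 and 10.15, then 8.7, 8.7 and 8.43, then 8.5, 8.99 and 8.75 in knockout cells. In CCRF-CEM its signal was lower and scattered, at 6.46, 5.97 and 5.4, then 6.58, 5.86 and 5.7, then 5.81, 7.0 and 6.47 in parent and 5.5, 5.17 and 5.18, then 4.35, 3.56 and 3.04, then 6.17, 4.66 and 5.25 in knockout cells. There RASAL2 passed only in knockout cells at 6 h, and the parent groups overlapped.

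Whether the fall deepened or eased between 6 h and 12 h was tested as 12 h minus 6 h, which uses treated arrays alone. These arrays also entered the changes that chose the genes, so the test is not free of that choice. In CCRF-CEM some genes came back towards control by 12 h. In DU145 1 gene passed in each genotype, in opposite directions that did not hold under every alternative. In CCRF-CEM parent cells 7 of 38 genes were higher at 12 h than at 6 h (3% of all genes) and 0 lower (2.78%), with a median difference of 0.09. They were RIMS2, DIAPH2, ELAPOR2, SNX29, ARHGAP26, FAF1 and PITPNC1, at 0.55 to 0.97. In CCRF-CEM knockout cells 2 were higher (0.359% of all genes) and 0 lower (0.157%), with a median of 0.19. In DU145 parent cells 1 was higher (0.0854%) and 0 lower (0.368%), with a median of -0.10, and in DU145 knockout cells 0 were higher (0.193%) and 1 lower (0.193%), with a median of -0.06. At an unadjusted p below 0.05, in either direction, the counts in that order of cells were 16 (20% of all genes), 19 (14.4%), 11 (11.2%) and 9 (11.2%). Other long genes also came back in CCRF-CEM parent cells. Among 1908 other protein-coding genes of at least 150 kb, 107 were higher and 15 lower there (median 0.1). Among the 1211 of them with a mean signal of at least 7, 98 were higher and 12 lower (median 0.14). In CCRF-CEM knockout cells 10 of the 1908 were higher and 0 lower (median 0.04). With the housekeeping shift 12 members passed higher (6.64% of all genes) and 0 lower (0.741%) in CCRF-CEM parent cells, where the share of higher genes among all called went from 51.9% to 90%, and in DU145 knockout cells that share went from 50% to 22.2%. Cyclic loess took it from 69.6% to 57.3% in CCRF-CEM knockout cells. Over the mean of all probe sets 3 members passed higher (1.92% of all genes) and 2 lower (2.94%) in CCRF-CEM parent cells. The single direction there thus rests on the brightest probe sets. In CCRF-CEM knockout cells that mean gave 9 higher (1.56%) and 0 lower (0.773%). In DU145 parent cells the mean of all probe sets gave 0 higher (0.386%) and 2 lower (0.746%). In DU145 knockout cells it gave 1 higher (0.782%) and 4 lower (0.678%). Cyclic loess gave 1 higher (0.0943%) and 2 lower (0.427%) in DU145 parent cells. The 95% interval reached, in the median, to either side by 0.31 in CCRF-CEM and 0.42 in DU145.

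RIMS2 in CCRF-CEM parent cells, whose arrays are given above, was 0.97 ± 0.2 log2 higher at 12 h than at 6 h (adjusted p = 0.0135), and 19 of 30 of its probe sets were above 0. DIAPH2 read 10.53, 10.32 and 10.31 in these controls, 8.71, 9.25 and 8.85 at 6 h and 9.61, 9.65 and 9.81 at 12 h, a rise from 6 h of 0.76 ± 0.16 (adjusted p = 0.0137). ELAPOR2 read 9.67, 9.48 and 9.38, then 8.85, 9.0 and 8.52, then 9.54, 9.51 and 9.38, and its rise of 0.68 ± 0.18 (adjusted p = 0.0392) left 12 h arrays that overlapped the controls. Over the mean of all their probe sets RIMS2 and DIAPH2 were at 0.17 and 0.09 (adjusted p = 0.538 and 0.722) and ELAPOR2 turned to -0.06 (adjusted p = 0.858). The call of RIMS2 was lost without parent 6 h replicate 2 or 12 h replicate 1, that of DIAPH2 without any of 3 arrays and in 1 fit of all arrays (adjusted p = 0.114), and that of ELAPOR2 without any of 7.

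FAF1 and IQGAP2 were the genes that rose from 6 h to 12 h in CCRF-CEM knockout cells. FAF1 read 12.14, 12.08 and 12.07 in controls, 10.77, 10.58 and 10.61 at 6 h and 11.24, 11.25 and 11.29 at 12 h, a rise of 0.61 ± 0.1 (adjusted p = 0.0164) with 19 of 22 probe sets above 0. IQGAP2, whose arrays follow with the genotype difference, rose by 0.6 ± 0.12 (adjusted p = 0.0393), with 36 of 39 probe sets above 0. The 12 h arrays of both genes lay above the 6 h arrays and below the controls. The call of FAF1 was lost without any of 4 arrays (adjusted p = 0.0582 to 0.0879) and over the mean of all probe sets (0.40, adjusted p = 0.089), and that of IQGAP2 without any of 13 of 18 and in 1 fit of all arrays (adjusted p = 0.435).

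In DU145 knockout cells TBC1D5 fell further between 6 h and 12 h. Its arrays read 9.26, 9.38 and 9.61 in controls, 8.57, 8.95 and 8.78 at 6 h and 7.43, 7.25 and 7.73 at 12 h. The 3 groups did not overlap, and 12 h minus 6 h was -1.3 ± 0.17 (adjusted p = 0.00767), with 26 of 28 probe sets below 0. This call held under every alternative that was run. In parent cells TBC1D5 read 9.54, 9.58 and 9.3, then 8.57, 8.69 and 8.54, then 7.69, 8.33 and 7.97, and 12 h minus 6 h of -0.6 ± 0.17 did not pass (adjusted p = 0.157). TRERF1 went the other way in DU145 parent cells, from 8.0, 7.8 and 7.69 in controls to 6.04, 6.36 and 5.62 at 6 h and 6.88, 7.28 and 7.23 at 12 h. The rise of 1.12 ± 0.21 (adjusted p = 0.033) was lost without any of 5 arrays, with arrays shifted to equal housekeeping medians (adjusted p = 0.0763) and over the mean of all probe sets (0.19, adjusted p = 0.515).

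**Figure D2:**
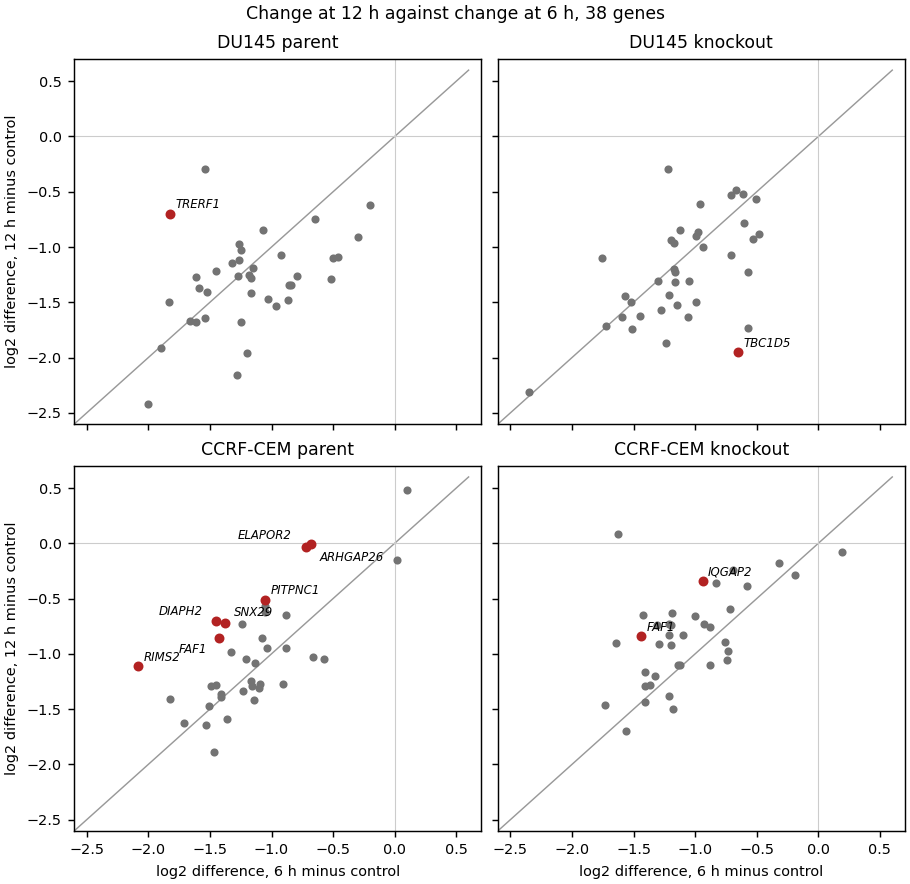
Log2 difference from control at 12 h (vertical) against 6 h (horizontal) for the 38 genes, 1 panel per line and genotype, with the line of equality; both axes use the same controls. Red points with names passed the test of 12 h minus 6 h: 7 lie above the line in CCRF-CEM parent cells, 2 in CCRF-CEM knockout cells, TRERF1 in DU145 parent cells, and TBC1D5 below it in DU145 knockout cells.

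The change of the parent minus the change of the knockout, called the genotype difference and given in log2, asked whether the fall depended on SLFN11. It uses the same arrays as the changes that chose the genes, but not their common direction. In DU145 1 of 38 genes passed at 6 h, lower (0.332% of all genes), and 1 at 12 h (0.597%), GNAQ both times. The numbers higher were 0 and 0 (0.782% and 0.53%). The medians over the 38 genes were -0.04 and -0.11. At an unadjusted p below 0.05, in either direction, the counts were 5 (13.3% of all genes) and 4 (15.8%), shares of the 38 that lie near those of all genes or below them. The 95% interval reached, in the median, 0.59 log2 to either side, and the intervals of 24 genes at 6 h and 20 at 12 h lay whole within 1 log2 of 0, so differences of that size cannot be dismissed for the rest.

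GNAQ in DU145 parent cells read 10.01, 10.1 and 10.14 in controls, 8.39, 8.57 and 8.51 at 6 h and 8.79, 8.64 and 8.69 at 12 h. In knockout cells it read 9.38, 9.62 and 9.7, then 8.8, 8.87 and 8.92, then 8.96, 8.97 and 9.19. The parent cells started higher and ended lower, and the genotype difference was -0.88 ± 0.15 at 6 h (adjusted p = 0.00916) and -0.84 ± 0.15 at 12 h (adjusted p = 0.0225). Untreated knockout cells were -0.51 ± 0.11 from parent cells (adjusted p = 0.00752). The probe sets of GNAQ did not move together: 8 of 10 and 6 of 10 were below 0 in the genotype difference and 5 of 10 in untreated cells. Over their mean the 3 values were -0.31, -0.01 and 0.12, none of which passed (adjusted p = 0.536, 0.989 and 0.671). The call at 12 h was also lost without parent control replicate 2 or without 12 h replicate 2 or 3 of the parent arrays (adjusted p = 0.0504 to 0.0574).

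In CCRF-CEM genes differed between the genotypes in both directions. At 6 h 4 of 38 passed lower, meaning a deeper fall in parent cells (0.696% of all genes), and 2 higher (1.54%), with a median of -0.17. At 12 h 5 passed lower (4.28% of all genes) and 3 higher (3.63%), with a median of -0.16. The genes at 12 h were ST6GALNAC3, TRERF1, IQGAP2, FUT8 and FTO below 0 and ELAPOR2, DMD and ARHGAP26 above. With arrays shifted to equal housekeeping medians the difference of all genes moved from -0.04 to 0.27 at 6 h and from 0.01 to 0.47 at 12 h. The calls were then 1 lower (0.0898% of all genes) and 5 higher (7.39%) at 6 h and 3 lower (0.696%) and 9 higher (22.6%) at 12 h, so the balance of directions rests on the scaling. The share of higher genes among all called went from 68.8% to 98.8% and from 45.9% to 97%. At an unadjusted p below 0.05, in either direction, the counts were 11 (16% of all genes) and 12 (21.5%).

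ARHGAP26 had fallen in both genotypes at 6 h and differed between them at 12 h. Its CCRF-CEM parent arrays read 10.19, 10.28 and 10.2 in controls, 9.38, 9.75 and 9.52 at 6 h and 10.22, 10.29 and 10.13 at 12 h. Its knockout arrays read 10.53, 10.85 and 10.63, then 9.44, 9.48 and 9.5, then 9.53, 10.03 and 9.68. Parent arrays at 12 h overlapped their controls, while all knockout arrays stayed below theirs. The genotype difference was 0.91 ± 0.18 at 12 h (95% interval 0.51 to 1.3, adjusted p = 0.0078), with 31 of 36 probe sets above 0, and at 6 h it was 0.52 ± 0.18 and did not pass (adjusted p = 0.164). The call at 12 h held under all 26 alternatives.

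FUT8 and, at 12 h, IQGAP2 fell less in CCRF-CEM knockout than in parent cells. FUT8 read 10.63, 10.54 and 10.62 in parent controls, 9.33, 9.5 and 9.47 at 6 h and 9.36, 9.33 and 9.22 at 12 h, and 10.42, 10.29 and 10.51, then 9.79, 9.85 and 9.84, then 10.06, 9.98 and 10.0 in knockout cells. All treated arrays were below controls in both genotypes, and the genotype difference was -0.59 ± 0.12 at 6 h (adjusted p = 0.0197) and -0.9 ± 0.12 at 12 h (adjusted p = 0.000435), with 12 of 18 and 16 of 18 probe sets below 0. The call at 6 h was lost with arrays shifted to equal housekeeping medians (-0.27, adjusted p = 0.295), over the mean of all probe sets (-0.08, adjusted p = 0.873) and without parent control replicate 1 or knockout control replicate 2. The FUT8 call at 12 h was not followed under the alternatives. IQGAP2 read 10.86, 10.93 and 10.81, then 9.49, 9.74 and 9.95, then 9.5, 9.44 and 9.41 in parent and 10.9, 10.95 and 11.07, then 9.93, 9.97 and 10.19, then 10.52, 10.62 and 10.76 in knockout cells. At 6 h the genotype difference was -0.2 ± 0.17 (adjusted p = 0.609). At 12 h parent arrays overlapped those of 6 h, while knockout arrays lay above those of 6 h (-1.08 ± 0.17, adjusted p = 0.00133). Of its probe sets 34 of 39 were below 0, and the call was lost in 1 fit of all arrays (adjusted p = 0.182). In DU145 parent cells at 6 h IQGAP2 read 6.28, 4.89 and 4.44.

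TRERF1 in CCRF-CEM fell in parent cells and did not pass in knockout cells. Its arrays read 8.6, 9.07 and 8.99 in parent controls, 7.63, 7.59 and 7.75 at 6 h and 7.61, 7.62 and 7.42 at 12 h, and 8.6, 8.79 and 8.72, then 8.63, 8.31 and 8.19, then 8.7, 8.51 and 8.35 in knockout cells. The genotype difference was -0.9 ± 0.2 (adjusted p = 0.0313) and -1.15 ± 0.2 (adjusted p = 0.00311). Over the mean of all probe sets neither passed (-0.48 and -0.50, adjusted p = 0.101 and 0.0559), and the call at 6 h was lost without any of 10 arrays, with the housekeeping shift (-0.59, adjusted p = 0.103) and in 1 fit of all arrays (adjusted p = 0.0571). The sialyltransferase gene ST6GALNAC3 read 5.92, 6.49 and 6.52 in parent controls, 4.66, 4.87 and 4.88 at 6 h and 5.34, 4.44 and 4.75 at 12 h. In knockout cells it read 3.43, 4.12 and 4.38, then 4.12, 4.07 and 4.33, then 4.19, 3.95 and 3.54. Untreated knockout cells were already far below untreated parent cells, and the genotype difference of -1.7 ± 0.37 and -1.38 ± 0.37 (adjusted p = 0.0289 and 0.0348) stands beside knockout signals not far above the lower quartile of the arrays, at most 3.04. Its calls were lost without any of 9 arrays at 6 h and any of 7 at 12 h, and at 12 h with the housekeeping shift (-0.93, adjusted p = 0.0826).

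The genes with a deeper fall in CCRF-CEM knockout cells were DMD and ELAPOR2, besides ARHGAP26, and CHST11 at 6 h. DMD read 8.65, 8.52 and 8.77 in parent controls, 8.57, 8.73 and 8.7 at 6 h and 8.64, 8.24 and 8.62 at 12 h, which overlapped, and 8.93, 8.7 and 8.72, then 7.05, 7.89 and 7.19, then 7.13, 7.31 and 7.59 in knockout cells, where treated arrays were below controls. The differences were 1.43 ± 0.27 and 1.3 ± 0.27 (adjusted p = 0.0125 and 0.00899). ELAPOR2 in knockout cells read 9.64, 9.64 and 9.39, then 7.73, 8.48 and 7.77, then 7.82, 8.0 and 7.76, with a genotype difference of 1.67 ± 0.25 at 12 h (adjusted p = 0.00125). The probe sets of these genes did not move together: 42 of 75 of DMD and 10 of 26 of ELAPOR2 were above 0, and over the mean of all probe sets the values were 0.14 (adjusted p = 0.582) and -0.08 (adjusted p = 0.862). CHST11 read 11.1, 11.13 and 11.3 and 10.39, 10.21 and 10.29 in parent and 11.22, 11.37 and 11.28 and 9.95, 9.81 and 9.89 in knockout cells as controls and at 6 h. Its difference of 0.53 ± 0.13 (adjusted p = 0.0425) was lost without any of 17 of 18 arrays, over the mean of all probe sets (0.31, adjusted p = 0.479) and in 1 fit of all arrays (adjusted p = 0.0797).

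**Figure D3:**
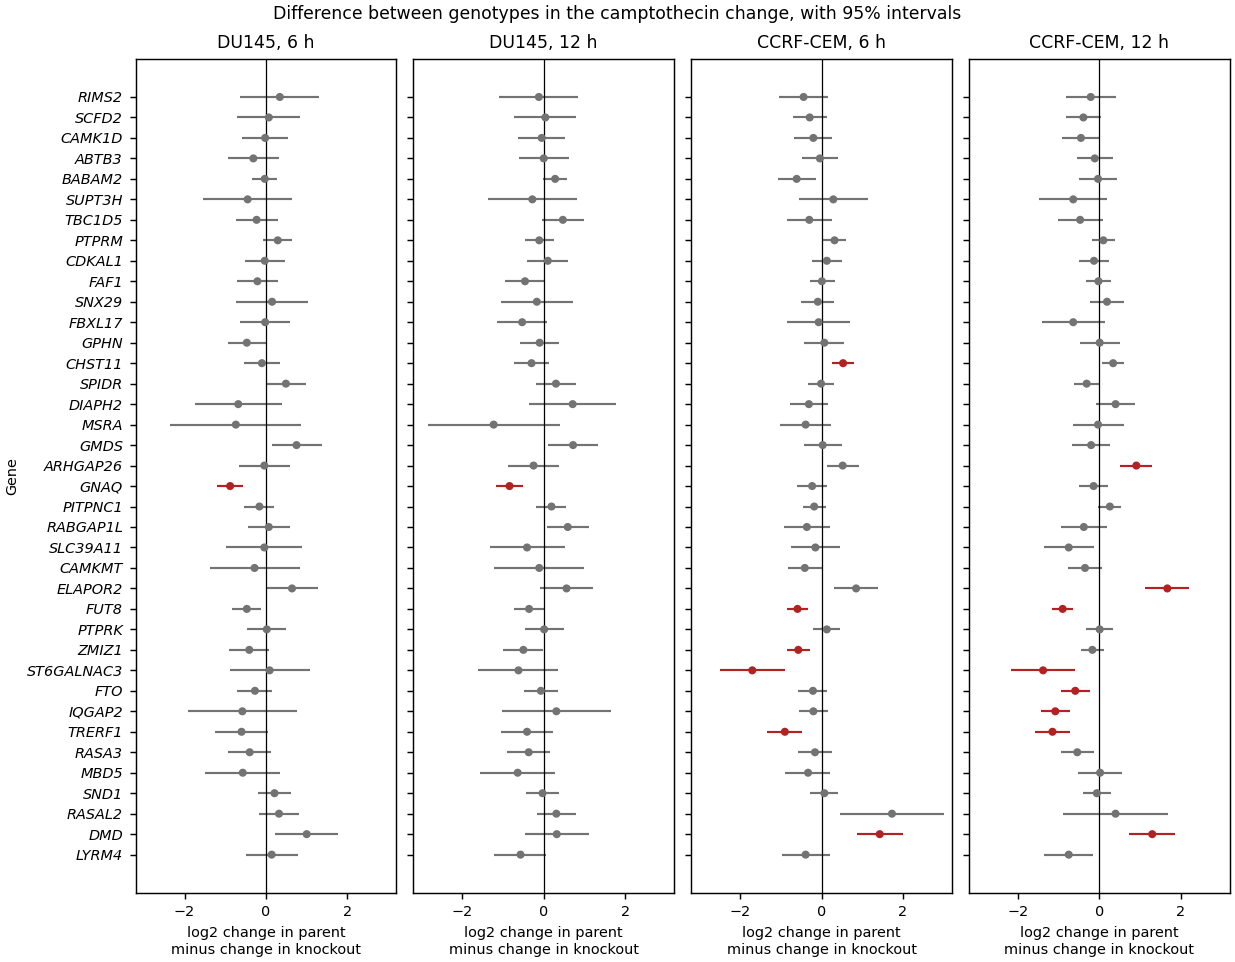
Genotype difference of the 38 genes (log2 change in parent minus log2 change in knockout cells, dots) with 95% intervals from limma (bars), in DU145 and CCRF-CEM at 6 h and 12 h. Red marks genes that passed: GNAQ in both DU145 panels, 6 genes in CCRF-CEM at 6 h and 8 at 12 h, on both sides of 0.

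Before camptothecin 2 of the genes differed between knockout and parent cells in DU145 and 3 in CCRF-CEM. In DU145 2 of 38 were lower in knockout cells (5.26% of all genes) and 0 higher (6.1%), with a median of 0, so the share lower was near that of all genes. At an unadjusted p below 0.05, in either direction, 9 did in DU145 (25.8% of all genes) and 9 in CCRF-CEM (11.7%). Cyclic loess took the share of higher genes among all called from 53.7% to 66%. Besides GNAQ this was ZMIZ1, at 10.52, 10.33 and 10.4 in parent and 9.8, 9.85 and 9.65 in knockout cells, -0.65 ± 0.16 apart (adjusted p = 0.0195) with 21 of 25 probe sets below 0. The ZMIZ1 call was lost without parent control replicate 1 or 3 or knockout control replicate 3 (adjusted p = 0.0529 to 0.0627). In CCRF-CEM 1 was lower (0.521%) and 2 higher (0.993%), with a median of -0.01. ST6GALNAC3 was -2.33 ± 0.26 (adjusted p = 0.000177), with 7 of 7 probe sets below 0. The adhesion phosphatases PTPRM and PTPRK were higher: PTPRM stood at 10.49, 10.45 and 10.52 in parent and 11.17, 11.27 and 11.16 in knockout controls, a difference of 0.72 ± 0.09 (adjusted p = 0.000635) seen in 24 of 24 probe sets. PTPRK stood at 9.58, 9.51 and 9.34 and 10.0, 10.06 and 9.99, 0.54 ± 0.11 apart (adjusted p = 0.018), in 35 of 37 probe sets. Neither pair of groups overlapped. The PTPRK call was lost without any of 5 of the 6 control arrays. With 1 knockout derivative per line, SLFN11 loss and other properties of those cells cannot be told apart.

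At 12 h some of the genes had fallen less in CCRF-CEM than in DU145. The line difference, the log2 change in CCRF-CEM minus that in DU145 in 1 fit of all 36 arrays, is above 0 where CCRF-CEM fell less. In parent cells 3 of 38 passed lower at 6 h (2.6% of all genes) and 0 higher (2.68%), with a median of 0.12. At 12 h 6 passed higher (5.88%) and 0 lower (4.64%), with a median of 0.23. In knockout cells 1 passed lower at 6 h (0.93%) and 0 higher (1.14%), with a median of -0.04, and at 12 h 7 passed higher (3.01%) and 0 lower (2.58%), with a median of 0.34. At an unadjusted p below 0.05, in either direction, the counts were 14 (19.3% of all genes) and 14 (22.1%) in parent and 8 (14.5%) and 15 (19.2%) in knockout cells. Some other long genes also fell less in CCRF-CEM at 12 h. Among 1908 other protein-coding genes of at least 150 kb, 235 passed higher and 43 lower in parent cells (median 0.11). In knockout cells 158 passed higher and 28 lower (median 0.07). Among the 1211 of them with a mean signal of at least 7, 226 passed higher and 34 lower in parent cells (median 0.18). In knockout cells these counts were 153 and 20 (median 0.14). Calls of a lesser fall were thus not particular to the 38 genes. Other genes of 200 to 400 kb had medians of 0.13 in parent and 0.07 in knockout cells. Those over 400 kb, the class of 25 of the 38, had -0.04 and 0.03, near the medians of all genes (-0.02 and -0.04). Of those over 400 kb 7.34% and 6.42% passed higher, and 3.21% and 2.29% lower. RIMS2, CDKAL1, FAF1 and PITPNC1 passed at 12 h in both genotypes, beside ARHGAP26 and RASAL2 in parent cells and RABGAP1L, SPIDR and FUT8 in knockout cells. The lines also differ in tissue of origin and other genes, and the shift to equal housekeeping medians moved the difference of all genes in parent cells from -0.04 to 0.21 at 6 h and from -0.02 to 0.39 at 12 h. With it 6 members passed higher (8.43% of all genes) and 0 lower (0.728%) in parent cells at 6 h, and 13 higher (20%) and 0 lower (1.02%) at 12 h, so the 3 calls below 0 at 6 h rest on the scaling. In knockout cells at 12 h 3 members passed higher with the shift (1.77% of all genes) and 0 lower (1.75%). The share of higher genes among all called went from 50.7% to 92.1% and from 55.9% to 95.1%, and in knockout cells at 6 h from 55.1% to 25.8%. Cyclic loess took it from 50.7% to 39.8% in parent cells at 6 h. Over the mean of all probe sets 6 members passed lower (3.93% of all genes) and 6 higher (5.55%) in parent cells at 6 h.

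ARHGAP26 differed most between the lines in parent cells at 12 h, by 1.67 ± 0.24 (adjusted p = 3.3e-05). In DU145 parent cells it read 9.42, 9.58 and 9.29 in controls and 8.12, 7.81 and 7.33 at 12 h, a wide gap, against the overlap with controls in CCRF-CEM given above. Of its probe sets 30 of 36 were above 0, and the call held under all 43 alternatives. RASAL2 followed at 1.61 ± 0.47 (adjusted p = 0.025) and RIMS2 at 1.32 ± 0.39 (adjusted p = 0.0275), calls that were lost without any of 4 and 5 arrays. In knockout cells at 12 h RABGAP1L read 9.57, 10.04 and 9.84 in controls and 7.93, 8.15 and 7.76 in DU145 and 9.31, 9.47 and 9.15 and 8.77, 9.16 and 9.28 in CCRF-CEM. Treated arrays were far below controls in DU145 and overlapped them in CCRF-CEM, 1.63 ± 0.25 apart (adjusted p = 0.000337), with 30 of 37 probe sets above 0. CDKAL1 read 9.84, 10.25 and 10.08 and 7.94, 8.69 and 8.34 in DU145 and 10.61, 10.77 and 10.56 and 9.79, 10.11 and 9.85 in CCRF-CEM knockout cells, a difference of 1.01 ± 0.2 (adjusted p = 0.00361) with 16 of 17 probe sets above 0. Treated arrays were below controls in both lines, and the gap was wider in DU145. The calls of RABGAP1L and CDKAL1 held under all 43 alternatives. RIMS2 in knockout cells differed by 1.41 ± 0.39 (adjusted p = 0.0317) and did not pass over the mean of its probe sets (0.23, adjusted p = 0.373) or without any of 6 arrays.

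At 6 h 3 members differed between the lines in parent cells and 1 in knockout cells. In parent cells TBC1D5 fell more in CCRF-CEM, from 9.83, 9.85 and 10.03 to 8.21, 8.0 and 8.36, than in DU145, by -0.84 ± 0.25 (adjusted p = 0.0486), a call lost without any of 27 of 36 arrays and with the housekeeping shift (-0.59, adjusted p = 0.178). BABAM2 differed by -0.64 ± 0.18 (adjusted p = 0.0379), lost without any of 8, over the mean of all probe sets (-0.23, adjusted p = 0.452) and with the housekeeping shift (-0.39, adjusted p = 0.154). PTPRM read 10.54, 10.34 and 10.61 and 9.67, 9.65 and 9.58 in DU145 and 9.06, 9.1 and 9.06 at 6 h in CCRF-CEM parent cells, and differed by -0.55 ± 0.14 (adjusted p = 0.0244). In knockout cells PTPRM read 10.14, 10.46 and 10.42 and 9.24, 9.32 and 8.99 in DU145 and 9.52, 9.38 and 9.51 at 6 h in CCRF-CEM, -0.57 ± 0.14 apart (adjusted p = 0.0323), with 24 of 24 probe sets below 0. PTPRM was thus lowered more in CCRF-CEM in both genotypes, although the parent call was lost with the housekeeping shift (-0.30, adjusted p = 0.294) and without any of 4 arrays, and the knockout call without any of 8.

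**Figure D4:**
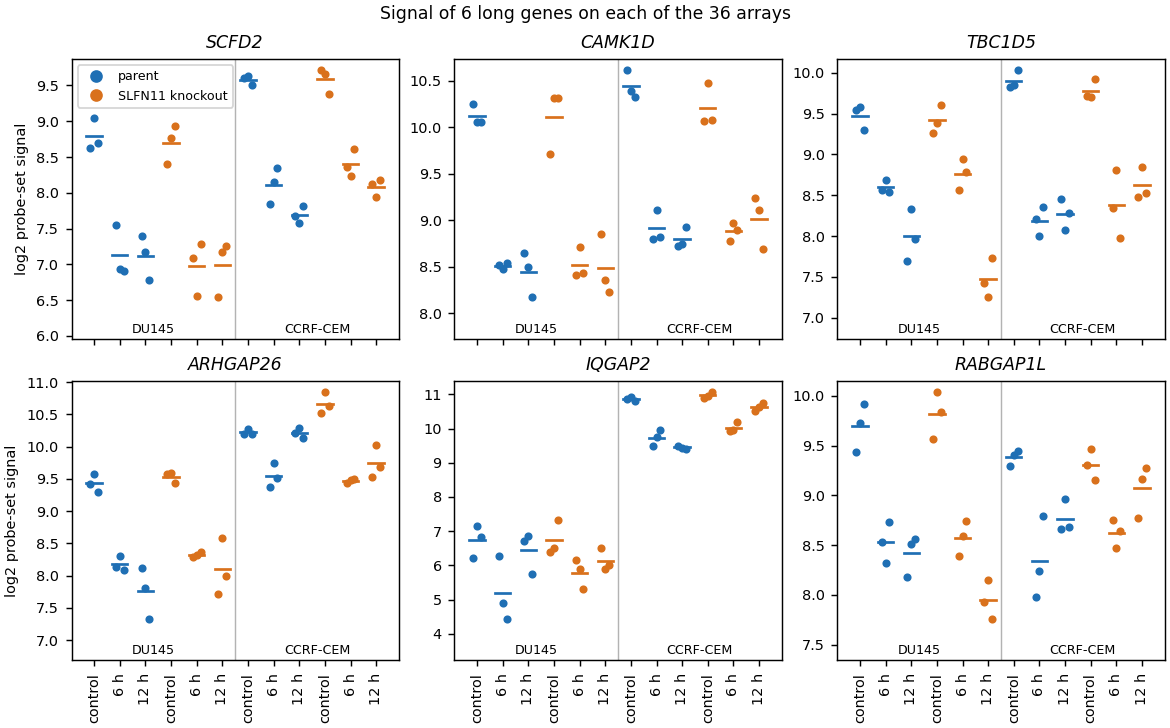
Log2 probe-set signal of SCFD2, CAMK1D, TBC1D5, ARHGAP26, IQGAP2 and RABGAP1L on each of the 36 arrays (dots) with group means (bars), in DU145 on the left and CCRF-CEM on the right of each panel, parent cells in blue and SLFN11 knockout cells in orange. SCFD2 and CAMK1D are below controls on every treated array in all 4 cell types, while the 12 h arrays of ARHGAP26 overlap the controls in CCRF-CEM parent cells and TBC1D5 is lowest in DU145 knockout cells at 12 h. The signal axis differs between panels and does not start at 0.

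Other long genes were lower too, but by less. Protein-coding genes under 50 kb had median differences of -0.02 to 0.12, and those of 200 to 400 kb and over 400 kb had medians of -0.05 to -0.25. Over the 8 comparisons 10.7% to 23.5% of genes of 200 to 400 kb and 9.63% to 15.4% of those over 400 kb passed lower, and 1.07% to 5.86% of genes under 10 kb did. The gap was narrowest in CCRF-CEM parent cells at 12 h, where the 3 shares were 12.5%, 11% and 5.86%. Of 1908 other protein-coding genes of at least 150 kb, 180 to 417 passed lower, with medians of -0.08 to -0.21. Among the 1211 of them with a mean signal of at least 7, 156 to 382 passed lower, with medians of -0.10 to -0.28. The 38 genes, chosen for their fall, had medians of -0.84 to -1.27. The lowest of the other long genes were LPP (mean -1.68 over the 8 comparisons), EXOC6B (-1.40), PARD3 (-1.38) and ARID1B (-1.34), which passed lower in 8, 6, 8 and 8 comparisons. Across the 38 genes the correlation of the difference with the logarithm of the span ran from r = -0.50 in DU145 knockout cells at 12 h to 0.13 in CCRF-CEM parent cells at 12 h (n = 38 genes of the same arrays, a description). The correlation with the control level of the other genotype ran from -0.38 to -0.02.

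Related genes with the same roles, a list chosen for this comparison, had medians near 0. Of 142 measured relatives of the members 3 to 17 passed lower (2.81% to 7.3% of all genes) in the 8 comparisons. Those higher numbered 5 to 20 (3.52% to 9.51%), and the medians were -0.03 to 0.10. The calls lower were most frequent in DU145 parent cells. There 14 passed lower (4.42% of all genes) and 13 higher (5.67%) at 6 h, and 17 lower (3.89%) and 5 higher (3.8%) at 12 h. The 18 relatives of at least 150 kb had medians of -0.41 to 0.01, and 1 to 8 of them passed lower. DIAPH3, a formin like DIAPH2, had the lowest mean (-0.75), with -1.18 ± 0.18 at 6 h in DU145 parent cells (adjusted p = 0.000764). PTPRG, a receptor phosphatase, had a mean of -0.74 and reached -2.06 ± 0.23 at 12 h in DU145 parent cells (adjusted p = 6.28e-05). NF1, a Ras GTPase-activating protein like RASA3 and RASAL2, had -0.72 and passed lower in all 4 DU145 comparisons. The highest means were those of RASAL1 (0.58), PIAS3 (0.53) and CHST7 (0.50), relatives of RASAL2, ZMIZ1 and CHST11 that span 37.5, 10.6 and 24.7 kb.

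**Figure D5:**
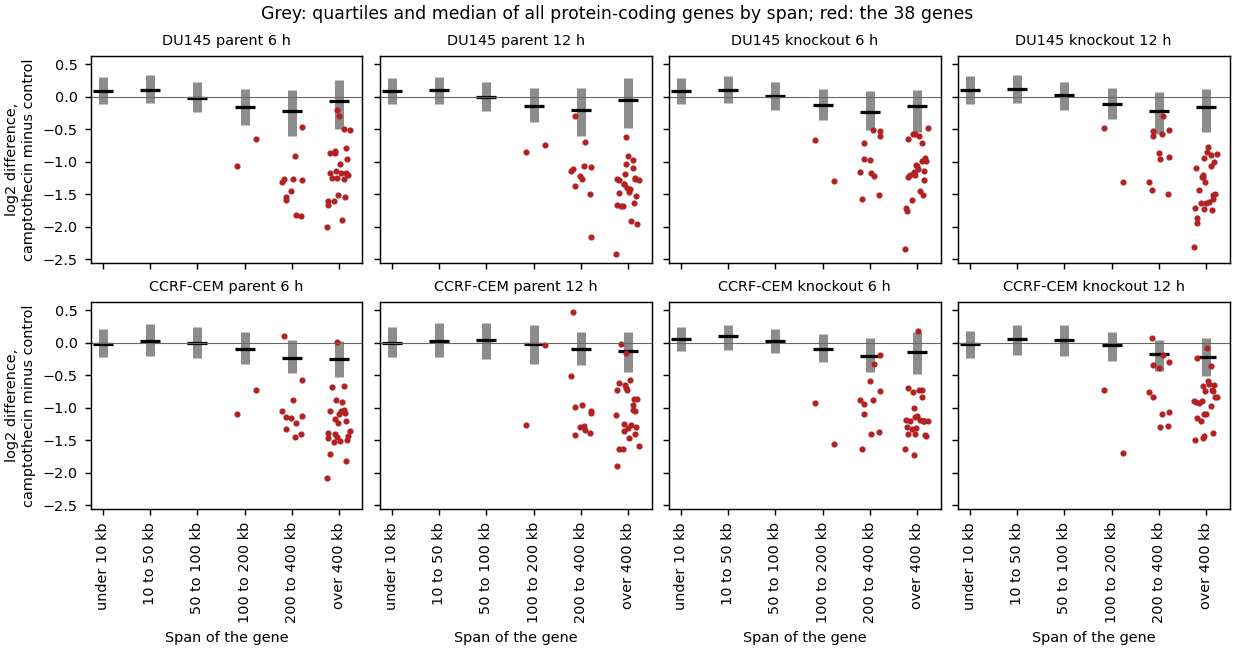
Log2 difference between camptothecin and control by genomic span, 1 panel per line, genotype and time. Grey bars give the quartiles and black dashes the median of all protein-coding genes in each span class, and red dots are the 38 genes, spread sideways for sight only; medians of the classes over 200 kb lie below 0 in every panel.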

How the data were processed

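Expression was measured on 36 arrays, 3 in each of 12 groups taken from the sample labels. The values are log2 probe-set signals deposited by the authors, normalized by RMA in Partek per the submitters' processing notes, with versions and genome build not given in the sources used here. Of 352859 probe sets those with a single gene symbol were used, and each of 22260 genes was represented by the probe set with the highest mean over all arrays. The 38 members, their relatives and the marker and housekeeping lists were chosen with earlier results of these data known.

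Differences were fitted on the log2 scale with limma 3.58.1 in R 4.3.3 (lmFit and eBayes), 1 fit per line and 1 fit of all 36 arrays for the line difference, with Benjamini-Hochberg adjustment over all 22260 genes and a threshold of 0.05. Errors are standard errors. The script was tested on simulated data. Alternatives were a replicate block, cyclic loess, a shift of each array to the same housekeeping median, averaging the probe sets of each gene, a filter on level, variance trend with robust moderation, 1 fit of all arrays, a threshold of 0.01, and leaving out each array. Values in every array are given for the 6 members with the lowest mean change, the 3 nearest 0 and up to 3 passing members per direction in each other contrast, and for a few further passing members chosen after their values were seen. Of the relatives the 3 lowest and 3 highest are named. Same-numbered arrays of different groups correlated at a median r of -0.01 in DU145 and 0.02 in CCRF-CEM in their deviations from group means, so the numbers were not taken to pair arrays. The number of arrays limits the precision. Spans and promoters came from RefSeq (GRCh38.p14), and figures were drawn with matplotlib 3.10.9.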

Additional observations from a re-analysis of the deposited data

Results flagged for a closer look

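The results below are members whose response to camptothecin differed between genotypes or lines in a test of the difference itself (log2 difference ± SE, limma adjusted p over all genes). The arrays are the same as those of the changes that chose the members, and the causes were not tested. Between the CCRF-CEM genotypes at 6 h the differences (parent change minus knockout change) were CHST11 0.53 ± 0.13 (adjusted p = 0.0425), DMD 1.43 ± 0.27 (adjusted p = 0.0125) and FUT8 -0.59 ± 0.12 (adjusted p = 0.0197). Further values there were ST6GALNAC3 -1.70 ± 0.37 (adjusted p = 0.0289), TRERF1 -0.90 ± 0.20 (adjusted p = 0.0313) and ZMIZ1 -0.57 ± 0.13 (adjusted p = 0.0341). Between the CCRF-CEM genotypes at 12 h they were ARHGAP26 0.91 ± 0.18 (adjusted p = 0.0078), DMD 1.30 ± 0.27 (adjusted p = 0.00899) and ELAPOR2 1.67 ± 0.25 (adjusted p = 0.00125). Further values there were FTO -0.59 ± 0.17 (adjusted p = 0.0433), FUT8 -0.90 ± 0.12 (adjusted p = 0.000435) and IQGAP2 -1.08 ± 0.17 (adjusted p = 0.00133). Further values there were ST6GALNAC3 -1.38 ± 0.37 (adjusted p = 0.0348) and TRERF1 -1.15 ± 0.20 (adjusted p = 0.00311). Between the DU145 genotypes the difference at 6 h was GNAQ -0.88 ± 0.15 (adjusted p = 0.00916). The DU145 difference at 12 h was GNAQ -0.84 ± 0.15 (adjusted p = 0.0225). Between the lines (CCRF-CEM change minus DU145 change) parent cells at 6 h gave BABAM2 -0.64 ± 0.18 (adjusted p = 0.0379), PTPRM -0.55 ± 0.14 (adjusted p = 0.0244) and TBC1D5 -0.84 ± 0.25 (adjusted p = 0.0486). Parent cells at 12 h gave ARHGAP26 1.67 ± 0.24 (adjusted p = 3.3e-05), CDKAL1 0.78 ± 0.20 (adjusted p = 0.0113) and FAF1 1.10 ± 0.19 (adjusted p = 0.000245). Further values there were PITPNC1 0.63 ± 0.14 (adjusted p = 0.00396), RASAL2 1.61 ± 0.47 (adjusted p = 0.025) and RIMS2 1.32 ± 0.39 (adjusted p = 0.0275). Knockout cells at 6 h gave PTPRM -0.57 ± 0.14 (adjusted p = 0.0323). Knockout cells at 12 h gave CDKAL1 1.01 ± 0.20 (adjusted p = 0.00361), FAF1 0.67 ± 0.19 (adjusted p = 0.0364) and FUT8 0.47 ± 0.14 (adjusted p = 0.0446). Further values there were PITPNC1 0.56 ± 0.14 (adjusted p = 0.0197), RABGAP1L 1.63 ± 0.25 (adjusted p = 0.000337) and RIMS2 1.41 ± 0.39 (adjusted p = 0.0317). Further values there were SPIDR 0.83 ± 0.19 (adjusted p = 0.00988).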

How the results depend on the processing

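The median change of the members stayed below 0 in all 8 camptothecin comparisons under every alternative, and the counts of members lower stayed within 1.5 times. With arrays shifted to equal housekeeping medians it was -1.34 and -1.39 in DU145 parent cells at 6 h and 12 h, -1.36 in DU145 knockout cells at 12 h, -1.04 and -0.77 in CCRF-CEM parent cells, and -1.37 and -1.0 in CCRF-CEM knockout cells. Over the mean of all probe sets it was -0.91 and -0.90, -0.63 and -0.91, -0.88 and -0.77, and -0.90 and -0.62 in that order of cells. Leaving out 1 array gave -1.23 to -1.15 in CCRF-CEM parent cells at 6 h, -1.14 to -1.04 at 12 h, and -1.23 to -1.11 in CCRF-CEM knockout cells at 6 h.

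Counts of members passing in the other comparisons moved more, and the causes were not tested. At a threshold of 0.01 the counts were 0 for the CCRF-CEM genotype difference at 6 h, 0 for CCRF-CEM knockout and 2 for CCRF-CEM parent cells at 12 h minus 6 h, 0 for the DU145 genotype difference at 12 h, 0 for DU145 parent cells at 12 h minus 6 h, 1 for untreated DU145, and 0 and 3 for parent and 0 and 3 for knockout line differences at 6 h and 12 h. The housekeeping shift gave 12 for CCRF-CEM parent and 0 for DU145 parent cells at 12 h minus 6 h, 6 and 13 for the parent line difference, and 3 for the knockout line difference at 12 h. The mean of all probe sets gave 1 for the CCRF-CEM genotype difference at 6 h, 0 for that of DU145 at 12 h, 9, 5 and 2 for CCRF-CEM knockout, DU145 knockout and DU145 parent cells at 12 h minus 6 h, 7 for untreated DU145, 12 and 15 for the parent and 5 and 11 for the knockout line difference. Variance trend with robust moderation gave 5 for CCRF-CEM knockout and 3 for DU145 parent cells at 12 h minus 6 h. Cyclic loess gave 3 for the latter and 4 for untreated DU145, the filter on level gave 2 for DU145 parent cells, and 1 fit of all arrays gave 4 and 3 for DU145 parent and knockout cells. Leaving out 1 array gave 2 to 5 for the CCRF-CEM genotype difference at 6 h, 0 to 1 for that of DU145 at 12 h, 0 to 2, 4 to 8 and 0 to 3 for CCRF-CEM knockout, CCRF-CEM parent and DU145 parent cells at 12 h minus 6 h, 1 to 4 for untreated DU145, 0 to 3 and 4 to 8 for the parent and 0 to 2 and 4 to 9 for the knockout line difference.

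With the replicate number as a block the counts stayed within 1.5 times, with 5 for the CCRF-CEM genotype difference at 6 h and 2 for the parent line difference at 6 h. Single calls were followed under the alternatives for up to 3 passing members per direction in each contrast other than camptothecin minus control. Of these calls the block ended those of CHST11 at 6 h (adjusted p = 0.0629), ST6GALNAC3 at 12 h (0.0507) and TBC1D5 between the lines (0.05), and no others. Over the mean of all probe sets 3 values turned: ELAPOR2 in the CCRF-CEM genotype difference at 12 h (-0.08) and at 12 h minus 6 h in parent cells (-0.06), and GNAQ in untreated DU145 (0.12).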
